A study of Homo sapiens with 6 samples.

Results

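Transcripts of 10 genes that make and rearrange disulfide bonds in the endoplasmic reticulum (ER) were examined in the human liver cancer line Hep-G2, with and without depletion of calmegin. They comprised 8 genes of the protein disulfide isomerase (PDI) family (P4HB, PDIA4, PDIA5, PDIA6, TXNDC5, TXNDC12, ERP29 and ERP44) and 2 ER oxidases (ERO1A and ERO1B). The 10 genes were found by their names among 58735 genes of the expression table, and each name matched 1 row. RNA was sequenced from 3 sh-NC libraries, labelled wild type and carrying a negative control hairpin, and from 3 sh-CLGN libraries, labelled CLGN knockdown and carrying a short hairpin RNA against CLGN. Both hairpins were delivered by lentivirus, and the study selected the cells with puromycin. All 6 libraries carried the same batch label, 0DAY, and none was labelled with a drug. Each group carried 1 hairpin sequence, so an effect of CLGN loss and an effect of the hairpin or of the selected population cannot be told apart. The labels do not say that the 3 libraries of a group came from separate cultures, and p-values measure only the spread between these libraries.

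The ER is where secreted and membrane proteins acquire their disulfide bonds. ERO1 enzymes oxidize PDI with molecular oxygen and release hydrogen peroxide, and oxidized PDI passes the bond on to its clients. Other PDI family members reduce or rearrange wrong bonds, hold unfolded chains or retain assembly intermediates. Hepatocytes, which secrete albumin, clotting factors and lipoproteins, depend heavily on this machinery. Many of its genes are switched on by the unfolded protein response, the signalling from the ER that answers an excess of unfolded protein. CLGN encodes calmegin, a lectin chaperone of the ER related to calnexin.

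Expression was measured as FPKM, read fragments corrected for the length of the gene and the size of the library. Each gene had a single deposited length, and whether it fits the transcripts expressed here was not examined. Rankings of different genes, sums and ratios between genes depend on these lengths. The reads recovered from the deposited values numbered 14955816 to 16244639 per sh-NC library and 15086344 to 15675776 per sh-CLGN library. Log-scale correlations were 0.988 to 0.992 within groups and 0.937 to 0.945 between them. The lowest within groups, 0.988, were those of sh-NC 3 with the other controls. It was also the control nearest to the sh-CLGN libraries, at 0.945 with each, where the other controls were at 0.937 to 0.942. The groups themselves differed broadly. A read was found on 23578 to 23793 genes in sh-NC and on 26814 to 27006 genes in sh-CLGN, and mitochondrial genes took 3.25% to 4.02% and 5.49% to 5.80% of the reads. Among the 13074 genes that reached 1 FPKM in 3 or more libraries, limma on log2(FPKM + 1) called 65.8%, with an adjusted p no higher than 0.05, 39% lower and 26.7% higher in sh-CLGN. The middle 50% of fold changes ran from -0.39 to 0.27 on the log2 scale around a median of -0.08. All counts of called genes given here are read against these shares.

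CLGN itself was lower in the libraries labelled sh-CLGN. It was measured at 24.1, 21.0 and 26.1 FPKM in sh-NC and 9.48, 8.88 and 8.60 FPKM in sh-CLGN, which left 37.8% of the control mean (log2 fold change -1.31, SE 0.081, adjusted p = 8.35e-06). Markers of hepatocytes, the labelled cell type, were abundant, as all 10 were above the filter and their summed level was 7868 to 8132 FPKM in sh-NC and 8105 to 8697 FPKM in sh-CLGN. Single markers differed within these sums, with 4 called higher, 5 lower and 1 not called. Mean AFP rose from 2670 to 3782 FPKM and mean ALB fell from 2007 to 1076 FPKM, both named after their values were seen. The 8 fibroblast markers summed to 7.17 to 8.51 FPKM in sh-NC and 48.5 to 49.9 FPKM in sh-CLGN, and COL1A2, from 4.20 to 38.7 FPKM, made up most of both sums. COL1A2 and PDGFRB, 1.30-fold, were called higher, as were COL1A1, COL3A1 and LUM, 10.05-fold, 6.30-fold and 5.74-fold higher, which passed the filter only through the sh-CLGN libraries and so had to differ to be tested. Of the 3 markers below the filter, PDGFRA was 2.26-fold higher with separated groups, and DCN and THY1 had at most 1 read in any library. Endothelial markers summed to at most 3.67 FPKM and leukocyte markers to at most 1.53 FPKM in any library, and both sums were lower in sh-CLGN. The part of these marker differences in the results below was not tested. In bulk RNA, fewer cells that express a gene and less RNA per cell cannot be told apart.

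In sh-CLGN cells, 6 of the 8 PDI family transcripts fell, 2 did not pass the test, and both ERO1 transcripts rose, although the small rise of ERO1A was absent after a correction for GC content. PDIA4 fell the most, to 41.5% of its control level, and ERO1B rose the most in proportion, 3.50-fold from a very low level. In all, 8 of the 10 genes were called, against 65.8% of all tested genes, 6 were lower against 39%, and 2 were higher against 26.7%. All 3 libraries of one group lay beyond all 3 of the other for 8 of the 10 genes, against 70.2% of tested genes. A log2 fold change of 1 or more in either direction, in addition to the adjusted p, was reached by PDIA4 alone of the 10 genes, against 6.28% of tested genes. The shares of called and of separated genes were near those of all tested genes, and no test over the 10 genes was made. The median log2 fold change was -0.47 over the 8 PDI family genes and -0.41 over all 10. All 10 genes passed the expression filter, but ERO1B passed it only through the sh-CLGN libraries and so had to differ to be tested.

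**Figure D1:**
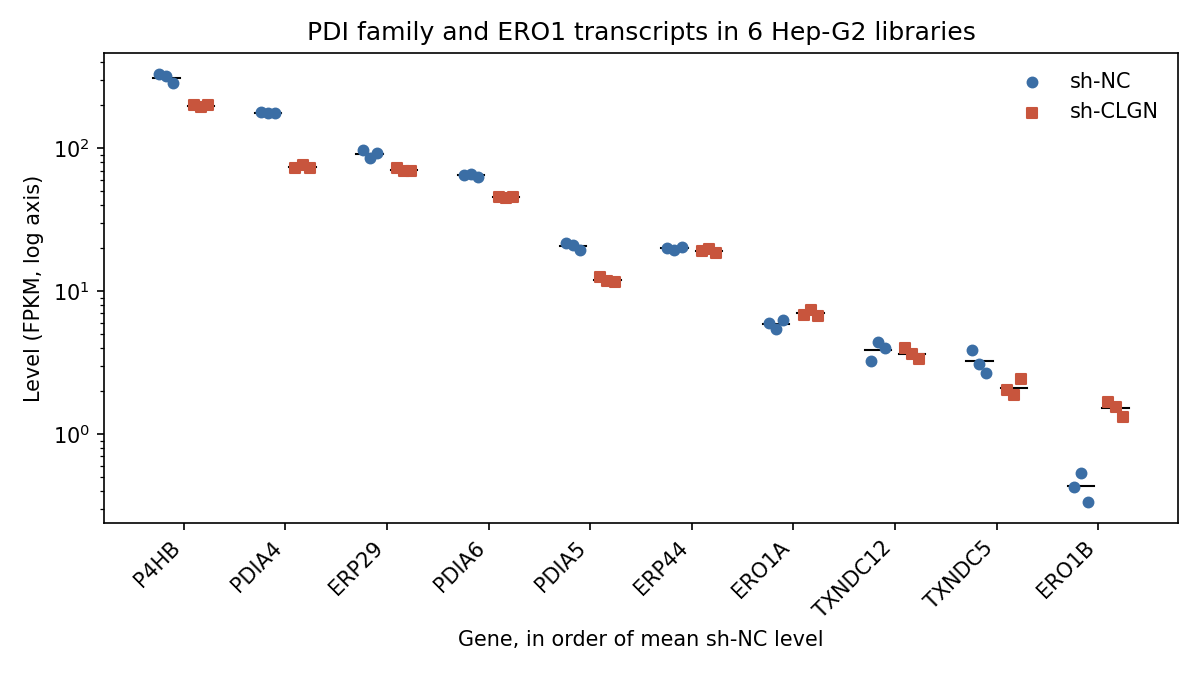
Level of each of the 10 transcripts in FPKM (log axis) in each library, with genes in order of their mean in sh-NC. Points are libraries (3 sh-NC circles, 3 sh-CLGN squares) and the short lines are group means. P4HB is at the top at 288 to 330 FPKM in sh-NC and ERO1B at the bottom at 0.338 to 0.537 FPKM. The groups overlap for ERP44 and TXNDC12 and are separated for the other 8 genes.

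Levels in sh-NC spanned nearly the whole range of the tested genes. P4HB was highest, followed by PDIA4, ERP29 and PDIA6. PDIA5 and ERP44 came next and could not be ordered, since their libraries ran from 19.4 to 21.8 and from 19.5 to 20.4 FPKM. ERO1A stood above TXNDC12 and TXNDC5, whose ranges also overlapped, at 3.26 to 4.40 and 2.70 to 3.90 FPKM. ERO1B was last, at the 1.17th percentile of tested genes in sh-NC, where P4HB was at the 99.4th. Genes below the filter are not in this ranking, and ERO1B passed the filter only through the sh-CLGN libraries.

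P4HB encodes PDI itself, the founding member of the family and the main substrate of ERO1. Its level was 330, 319 and 288 FPKM in sh-NC and 202, 194 and 201 FPKM in sh-CLGN. Every sh-CLGN library lay below every control library. Averaged, P4HB fell from 312 ± 21.98 to 199 ± 4.30 FPKM (SD, n = 3), which is 63.8% of the control (log2 fold change -0.64, SE 0.060, adjusted p = 5.52e-05). The gene lies on the minus strand at chr17:81843159-81860694 (GRCh38), and 16874 to 24709 reads stood behind each value.

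PDIA4, also called ERP72, has several thioredoxin-like domains and works with the chaperone HSPA5. It was measured at 179, 178 and 178 FPKM in sh-NC and at 72.4, 76.1 and 73.3 FPKM in sh-CLGN. Control libraries were almost identical and stood far above the knockdown libraries. The mean went from 178 ± 0.735 to 73.9 ± 1.94 FPKM (SD, n = 3; log2 fold change -1.26, SE 0.043, adjusted p = 1.05e-06). This fold change was at the 1.32nd percentile of all tested genes, close to that of CLGN at the 1.09th. The gene is at chr7:149003062-149028641 on the minus strand, and each library held 3877 to 9027 reads.

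Promoters of P4HB and PDIA4, the most abundant of the 10 transcripts and the strongest fall, are shown because both are rich in CCAAT boxes, the letters CCAAT on either strand that the factor NF-Y binds. Sequences are from RefSeq on GRCh38.p14 and are written on the gene's strand. Capitals mark the CCAAT letters in either orientation and, likewise, the 5 letters CCACG that the stress-induced factors need beside it. The P4HB stretch is chr17:81860636-81860775 (minus strand) and begins 240 bases before the start site. The PDIA4 stretch is chr7:149028521-149028600 (minus strand) and begins 110 bases before it.
P4HB: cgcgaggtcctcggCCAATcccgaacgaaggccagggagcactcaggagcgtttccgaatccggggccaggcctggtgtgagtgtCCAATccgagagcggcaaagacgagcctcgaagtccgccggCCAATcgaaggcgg
PDIA4: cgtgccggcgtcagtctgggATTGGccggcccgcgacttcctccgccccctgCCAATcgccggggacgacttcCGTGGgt
The P4HB stretch held 3 CCAAT boxes and no CCACG. The PDIA4 stretch held CCAAT in each orientation and 1 reversed CCACG, but not at the spacing of the full ER stress element described below. CCAAT was found on either strand in 34.6% of all 35116 promoter windows (250 bases before to 50 after a start site), in 34.97% of those of tested genes and in 7 of the 14 windows of the 10 genes.

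PDIA3, the glycoprotein-directed isomerase that works with calnexin and calreticulin, is not one of the 10 genes but is a relative of similar abundance. Its libraries were at 144, 151 and 152 FPKM in sh-NC and 96.3, 93.8 and 87.8 FPKM in sh-CLGN. They did not overlap, and the log2 fold change of -0.68 (SE 0.051, adjusted p = 1.97e-05) was close in size to that of P4HB. PDIA3 is named here after its values were seen.

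PDIA5, or PDIR, is a less studied isomerase linked to the activation of ATF6. It stood at 21.8, 21.1 and 19.4 FPKM in sh-NC and 12.5, 11.7 and 11.6 FPKM in sh-CLGN. Both groups were tight and apart. The mean of PDIA5 dropped from 20.8 ± 1.23 to 11.9 ± 0.503 FPKM (SD, n = 3), 57.4% of the control (log2 fold change -0.75, SE 0.060, adjusted p = 2.57e-05). PDIA5 is at chr3:123067062-123225227 on the plus strand and shares 23301 bases with SEC22A on the same strand. SEC22A held 153 to 211 reads per library against 753 to 1242 for PDIA5, and whether shared reads were split between them is not given in the sources used here.

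PDIA6, or P5, oxidizes and reduces clients together with HSPA5 and limits the signalling of the stress sensor IRE1. Its level was 64.9, 66.6 and 63.6 FPKM in sh-NC and 45.9, 44.7 and 45.6 FPKM in sh-CLGN. The 3 knockdown libraries lay within a narrow band well below the controls. The mean went from 65.0 ± 1.52 to 45.4 ± 0.638 FPKM (SD, n = 3), 69.9% of the control (log2 fold change -0.51, SE 0.043, adjusted p = 3.41e-05). The gene is at chr2:10783391-10837977 on the minus strand.

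PDIA6 and ERO1B were the 2 genes of the 10 whose promoter windows held a complete ER stress element (ERSE), the letters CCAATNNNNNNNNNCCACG on either strand, which NF-Y and the unfolded protein response factors ATF6 and XBP1 bind. The element was found in 27 of 35116 promoter windows, 0.0769%, and in 0.137% of the windows of tested genes. In PDIA6 it lay at chr2:10812853-10812871, 86 to 68 bases before 1 of its 2 start sites. In ERO1B it lay reversed at chr1:236282183-236282201, from -243 to -225. Both stretches are on the minus strand and are shown with CCAAT and CCACG, or their reverse complements, in capitals, for PDIA6 at chr2:10812836-10812935 (100 bases from -150) and for ERO1B at chr1:236282109-236282208 (100 bases from -250).
PDIA6: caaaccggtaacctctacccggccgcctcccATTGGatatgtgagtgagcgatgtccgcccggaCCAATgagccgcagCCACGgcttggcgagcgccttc
ERO1B: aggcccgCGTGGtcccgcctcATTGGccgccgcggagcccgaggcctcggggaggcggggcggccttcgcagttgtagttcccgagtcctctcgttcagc
The transcripts of these 2 genes moved in opposite directions, PDIA6 lower and ERO1B higher. Of the 25 genes with the element 16 were tested, these 2 included, and 7 were lower, 4 were higher and 5 did not pass the test (median log2 fold change -0.14). Those shares are near the 39% and 26.7% of all tested genes, so they are no result about genes with the element. Another element of that response, UPRE (TGACGTGG), was in 0.729% of all windows, 0.861% of those of tested genes and 1 of the 14 windows of the 10 genes, in TXNDC5 from -92 to -85. The CCACG letters alone were in 38.1% of all windows, 48.0% of those of tested genes and 9 of the 14. ACGTG, the core bound by hypoxia-inducible factors and contained in UPRE, was in 21.4%, 25.7% and 9 of the 14. A match of letters is a description of the window and not evidence of binding.

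TXNDC5, or ERP46, is an efficient oxidizing isomerase with 3 thioredoxin-like domains, and it was listed at a low level. Levels were 3.90, 3.09 and 2.70 FPKM in sh-NC and 2.03, 1.88 and 2.41 FPKM in sh-CLGN. The lowest control library was only slightly above the highest knockdown library. Mean TXNDC5 dropped from 3.23 ± 0.616 to 2.11 ± 0.277 FPKM (SD, n = 3), 65.2% of the control (log2 fold change -0.44, SE 0.118, adjusted p = 0.0116). It rested on 135 to 239 reads per library. TXNDC5 is at chr6:7881517-7910814 on the minus strand, where the readthrough gene BLOC1S5-TXNDC5 shares 29293 bases and was listed with 0 reads in all 6 libraries. Whether reads that fit both genes were counted for TXNDC5 is not given in the sources used here, so its level may be understated.

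TXNDC12, or ERP18, a small family member with a single thioredoxin-like domain, was at 3.26, 4.40 and 4.03 FPKM in sh-NC and 3.99, 3.63 and 3.37 FPKM in sh-CLGN. The groups overlapped, and no difference was detected at a depth of 175 to 260 reads (log2 fold change -0.07, SE 0.10, adjusted p = 0.580). The gene lies at chr1:52020131-52056171 on the minus strand and overlaps 2 protein-coding genes on the same strand, AL445685.3 over 13198 bases with 0 reads in all 6 libraries and KTI12 over 1714 bases with 43 to 85 reads. As for TXNDC5, reads that fit several genes may be missing from its level.

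ERP29, a redox-inactive member that helps secretory proteins fold and leave the ER, was at 97.5, 85.7 and 92.5 FPKM in sh-NC and 72.6, 69.4 and 69.7 FPKM in sh-CLGN. All knockdown libraries were below all controls. Mean ERP29 dropped from 91.9 ± 5.94 to 70.6 ± 1.75 FPKM (SD, n = 3), 76.8% of the control (log2 fold change -0.37, SE 0.057, adjusted p = 0.000663). This call was lost with quantile normalization, where the fold change was -0.07 (adjusted p = 0.249). ERP29 is at chr12:112013316-112023451 on the plus strand, and its pseudogene ERP29P1 had at most 3 reads.

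ERP44 retains ERO1 enzymes and unassembled clients in the early secretory pathway by a mixed disulfide. It was measured at 20.0, 19.5 and 20.4 FPKM in sh-NC and 19.2, 19.7 and 18.5 FPKM in sh-CLGN. The groups overlapped and the means, 20.0 ± 0.489 and 19.1 ± 0.594 FPKM (SD, n = 3), differed by a log2 fold change of -0.06 (SE 0.048, adjusted p = 0.311). Its sign depended on the scaling, at 0.17 with quantile normalization (adjusted p = 0.0187), 0.13 with scaling by read totals and 0.06 with TPM, and at -0.27 after a correction for GC content (adjusted p = 0.00054). ERP44 is at chr9:99979179-100099040 on the minus strand.

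**Figure D2:**
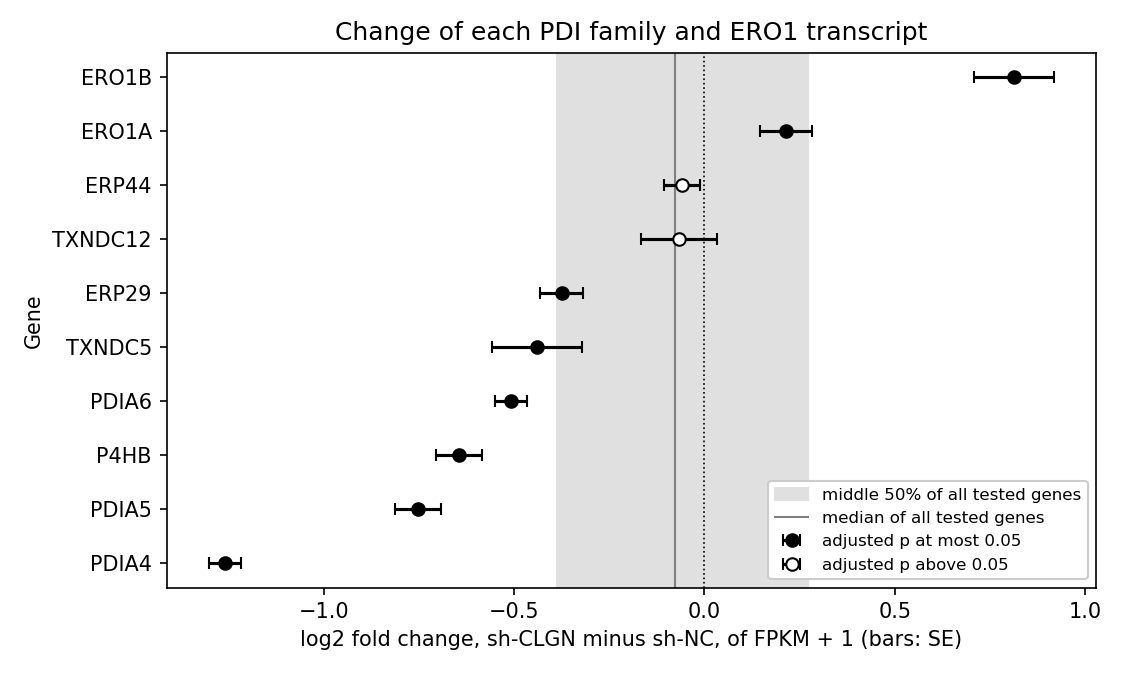
Log2 fold change of FPKM + 1 between sh-CLGN and sh-NC for the 10 genes, with bars for the standard error of the limma fit. The grey band spans the middle 50% of the 13074 tested genes and the grey line is their median. PDIA4, PDIA5, P4HB, PDIA6 and TXNDC5 lie left of the band and ERO1B right of it, while ERP29, TXNDC12, ERP44 and ERO1A lie inside. Open circles mark the 2 genes with an adjusted p above 0.05. ERO1A was at -0.0012 after GC correction, and ERP44 and TXNDC12 turned positive under other scalings.

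ERO1A is the widely expressed ER oxidase, induced by hypoxia in many cells. Its level was 5.95, 5.41 and 6.34 FPKM in sh-NC and 6.86, 7.35 and 6.77 FPKM in sh-CLGN. The groups did not overlap, although the gap between them was small. The mean rose from 5.90 ± 0.470 to 6.996 ± 0.314 FPKM (SD, n = 3), 1.19-fold (log2 fold change 0.21, SE 0.069, adjusted p = 0.0248). This call was lost after GC correction (log2 fold change -0.0012, adjusted p = 0.983), without the expression filter (adjusted p = 0.0557) and when sh-NC 1, sh-NC 2, sh-CLGN 1 or sh-CLGN 2 was left out (adjusted p 0.0521, 0.0752, 0.0536 and 0.0957). ERO1A is at chr14:52639916-52695900 on the minus strand, and its GC content of 38.7% was at the 10.9th percentile of tested genes.

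ERO1B is the paralog known for its high expression in secretory tissues such as the pancreas. Its level was 0.428, 0.537 and 0.338 FPKM in sh-NC and 1.68, 1.55 and 1.33 FPKM in sh-CLGN, from 28 to 42 and 115 to 153 reads. The lowest sh-CLGN library was above the highest control library by a wide margin. The mean rose from 0.434 ± 0.0997 to 1.52 ± 0.178 FPKM (SD, n = 3), 3.50-fold. On the log2(FPKM + 1) scale, which understates changes of low genes, the difference was 0.81 (SE 0.104, adjusted p = 0.000273). It was 1.82 by voom on the recovered reads, 1.61 with a pseudocount of 0.1 and 0.55 after GC correction, all called. The gene is at chr1:236215555-236281985 on the minus strand and overlaps GPR137B on the other strand by 6311 bases. GPR137B held 71 to 124 reads, and whether the counting used strand is not given in the sources used here. The GC content of ERO1B, 37.0%, was at the 5.41st percentile. Across tested genes, fold change and GC content had a Spearman correlation of -0.32, over genes of the same 6 libraries, which are not independent.

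Summed over the 8 PDI family genes, the level was 720, 697 and 668 FPKM in sh-NC and 430, 421 and 426 FPKM in sh-CLGN. The sum went from 695 ± 26.1 to 426 ± 4.53 FPKM (SD, n = 3), 0.612-fold, with separated groups (exact permutation test, two-sided, p = 0.1, the smallest that 3 against 3 libraries can give). Without PDIA4 the sum was 517 ± 25.6 and 352 ± 6.43 FPKM in the same order, 0.681-fold. P4HB, PDIA4, ERP29 and PDIA6 together made up 93.1% of this sum in sh-NC and 91.4% in sh-CLGN. The sum leaves out other relatives, among them the abundant PDIA3 and TMX2. The make-up of the sum shifted, as PDIA4 took 24.9%, 25.5% and 26.6% of it in the controls and 16.8%, 18.1% and 17.2% after knockdown (exact permutation p = 0.1). P4HB held 44.9% and 46.8% of the sum, ERP29 13.2% and 16.6%, and ERP44 2.87% and 4.49%.

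The ERO1 sum moved the other way, from 6.34 ± 0.371 to 8.52 ± 0.403 FPKM (SD, n = 3), 1.34-fold (exact permutation p = 0.1). ERO1A still made up most of it, although ERO1B rose from 6.93% to 17.8% of the ERO1 sum. Within each library, the log2 ratio of ERO1A to ERO1B was 3.799, 3.33 and 4.23 in the control libraries and 2.03, 2.25 and 2.35 after knockdown, a difference of -1.58 (exact permutation p = 0.1). For each FPKM of ERO1 the 8 PDI family genes summed to 113, 117 and 100.01 FPKM in the control libraries and 50.3, 47.3 and 52.6 after knockdown. Such ratios within a library do not depend on a single scaling factor, but quantile normalization reduced the difference in the ERO1A to ERO1B ratio to -0.85. The log2 ratio of the ERO1 sum to the PDI sum rose by 1.13 and its groups did not overlap (exact permutation p = 0.1). Sums and ratios were not computed after GC correction, where the log2 fold changes were -0.0012 for ERO1A and 0.55 for ERO1B.

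**Figure D3:**
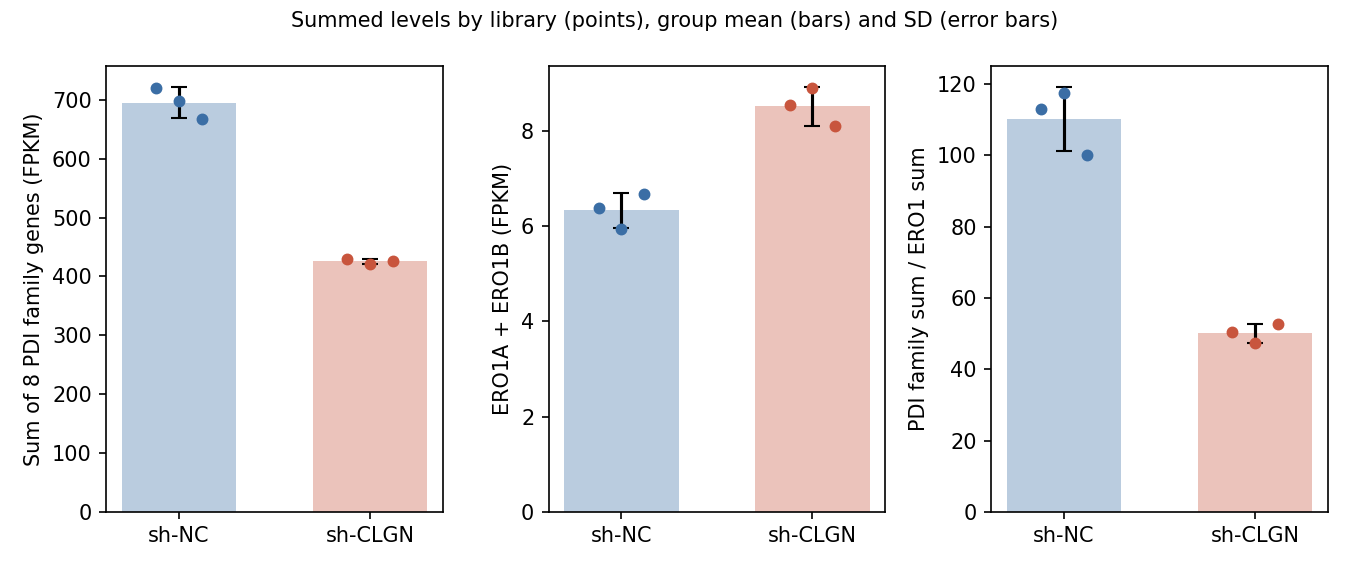
Summed FPKM of the 8 PDI family genes (left), of ERO1A and ERO1B (middle) and the ratio of the first sum to the second (right). Points are libraries, bars are group means from 0 and error bars are SD (n = 3 per group). The PDI sum is 695 and 426 FPKM, the ERO1 sum 6.34 and 8.52 FPKM, and the ratio 110 and 50.1 in sh-NC and sh-CLGN, with no overlap in any panel. None of these was computed after GC correction.

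Because PDIA4 stood apart, the genes whose 6 values lay nearest to it on the log2 scale, each centred on its own mean, were looked up among all tested genes. They were FADS1, a fatty acid desaturase, MARS, the methionyl-tRNA synthetase, and GOT1, an aspartate aminotransferase, at Euclidean distances of 0.0664, 0.0816 and 0.0911 over the 6 libraries. Their log2 fold changes were -1.23, -1.24 and -1.28, beside -1.26 for PDIA4. Such nearness is a description over 6 libraries in 2 groups.

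The other genes of the PDI family and of ER thioredoxin-fold proteins did not move as one. Of 13 such genes, 10 were tested, 5 were higher, 3 were lower and 2 did not pass, with a median log2 fold change of 0.26 beside -0.08 over all genes. The higher calls numbered 4 to 6 under the processing alternatives. Summed over the 13 genes, the level was lower, at 361 to 376 FPKM in sh-NC and 255 to 265 FPKM in sh-CLGN. PDIA3 and TMX2, both lower, were the most abundant of them. TMX2, a membrane-bound thioredoxin-like protein, fell from 156 ± 2.14 to 87.1 ± 1.499 FPKM (SD, n = 3; log2 fold change -0.84, adjusted p = 3.65e-06). ERP27, a redox-inactive member that binds PDIA3, rose from 7.49 ± 0.944 to 20.7 ± 0.449 FPKM (log2 fold change 1.36, adjusted p = 7.88e-06). TMX3, a membrane-bound oxidoreductase, rose from 1.91 ± 0.253 to 5.80 ± 0.233 FPKM (log2 fold change 1.23, adjusted p = 1.11e-05). The 3 genes not tested were PDIA2, PDILT and AGR3.

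**Figure D4:**
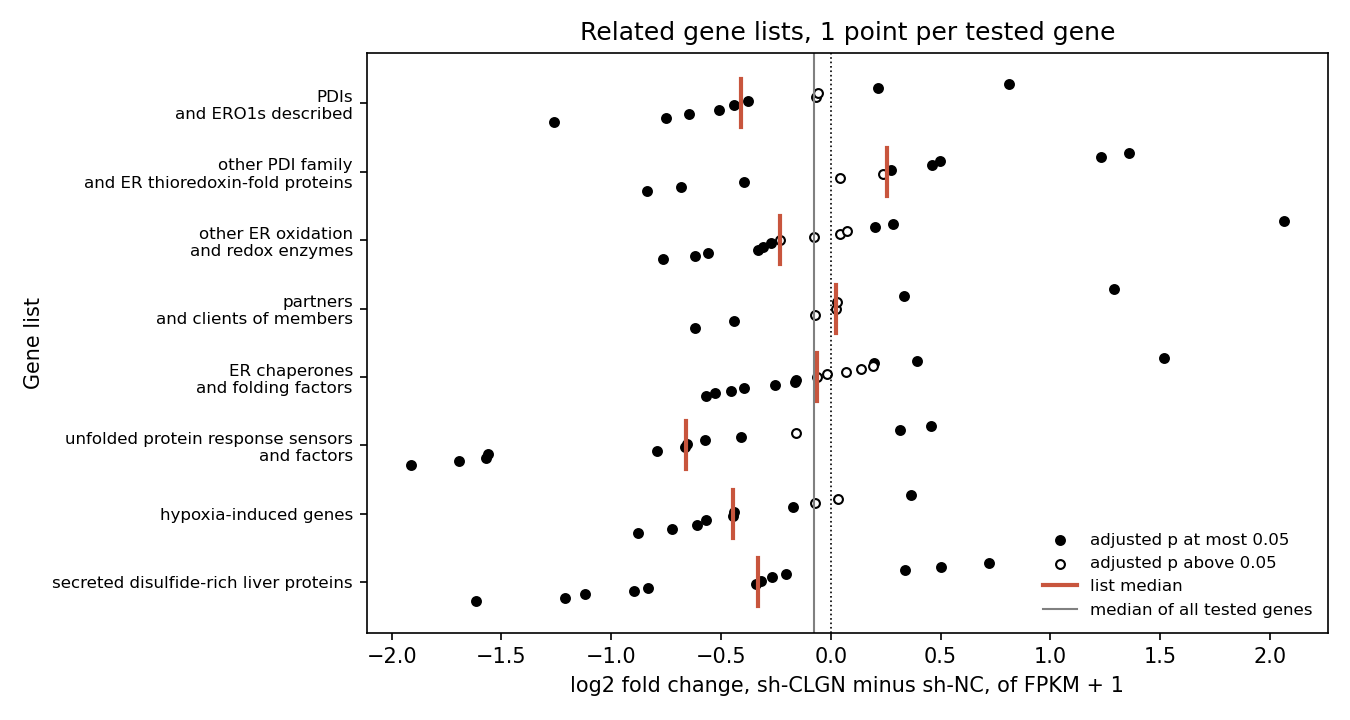
Log2 fold change of FPKM + 1 between sh-CLGN and sh-NC for the 10 PDI and ERO1 genes (top) and the tested genes of 7 related lists, 1 point per gene. Filled points have an adjusted p of at most 0.05, red lines are list medians and the grey line is the median of all tested genes (-0.08). The medians run from -0.66 for sensors and factors of the unfolded protein response to 0.26 for the other PDI family genes. With quantile normalization or read totals, more ER chaperones were called higher than lower.

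Enzymes that feed or drain oxidizing power in the ER were mixed as well. Of 14 genes 13 were tested, 6 were lower, 3 were higher and 4 did not pass, with a median of -0.23, and the split was 4 lower and 5 higher with scaling by read totals. The higher calls were 1 in place of 3 without sh-NC 1 and without sh-CLGN 1. GPX8, an ER peroxidase that removes the peroxide ERO1 makes, was at 1.98, 1.54 and 1.57 FPKM in sh-NC and 10.7, 10.5 and 9.62 FPKM in sh-CLGN. It was called higher (log2 fold change 2.06, SE 0.082, adjusted p = 1.69e-06). PRDX4, the other main peroxidase of the ER, was at 60.4 ± 2.35 and 49.9 ± 1.70 FPKM (SD, n = 3; log2 fold change -0.27, adjusted p = 0.00181) and turned to 0.02 with quantile normalization (adjusted p = 0.748). PRDX4 is named after its values were seen. QSOX1 and QSOX2, sulfhydryl oxidases that act apart from PDI, fell, with log2 fold changes of -0.56 and -0.77 (adjusted p = 0.000205 and 2.17e-05). NOX4, an oxidase that makes hydrogen peroxide, named after its values were seen, was below the filter and not tested. Its reads numbered 11, 4 and 16 in the control libraries and 109, 104 and 93 after knockdown, with separated groups and mean levels of 0.115 and 1.01 FPKM.

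Partners and clients of the 10 genes followed no common direction. Of 11 genes 7 were tested, with 2 higher, 2 lower and 3 not called, and a median of 0.03. Of the 2 higher genes, ITPR1 passed the filter only through the sh-CLGN libraries and so had to differ to be tested. ITPR1 is named after its values were seen. With scaling by read totals, 4 were higher and 2 lower. MTTP, which pairs with P4HB in the microsomal triglyceride transfer complex, rose from 34.6 ± 3.54 to 86.0 ± 1.41 FPKM (SD, n = 3; log2 fold change 1.29, adjusted p = 5.43e-06), while P4HB fell. P4HA1, the catalytic chain of prolyl 4-hydroxylase whose other chain is P4HB, fell from 47.6 ± 3.43 to 34.8 ± 1.16 FPKM (log2 fold change -0.44, adjusted p = 0.000403), a call lost with quantile normalization (adjusted p = 0.0716). LMAN2, a cargo lectin of the early secretory pathway, fell, with a log2 fold change of -0.62 (adjusted p = 0.000118). The transcripts of the P4HB partners MTTP and P4HA1 therefore moved in opposite directions.

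Chaperones and the unfolded protein response were looked up beside the PDI genes. Of 15 ER chaperones and folding factors, 7 were lower, 3 were higher and 5 were not called (median -0.06), but 3 were lower and 8 higher with quantile normalization and 4 lower and 7 higher with read totals. CANX and HYOU1 fell, with log2 fold changes of -0.53 and -0.46 (adjusted p = 4.91e-05 and 0.000134). DNAJB9, an HSPA5 co-chaperone, rose from 8.46 ± 0.471 to 26.1 ± 1.32 FPKM (SD, n = 3; log2 fold change 1.52, adjusted p = 1.69e-06). HSPA5, the partner of PDIA4 and PDIA6, named after its values were seen, was at 308 ± 13.4 and 275 ± 1.53 FPKM (log2 fold change -0.16, adjusted p = 0.0184), at 0.18 with quantile normalization (adjusted p = 0.0250) and at 0.03 with read totals. The HSPA5 call was also lost with TPM (adjusted p = 0.598), without the filter (0.0660) and with the replicate number as a block (0.0515). The same held when sh-NC 2 or any single sh-CLGN library was left out (adjusted p 0.0515 to 0.0748).

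Of 12 sensors and factors of the unfolded protein response, 9 were lower, 2 were higher and 1 was not called, with a median of -0.66. The higher genes, named after their values were seen, were EIF2AK3, which encodes PERK, and MBTPS2. Their log2 fold changes were 0.31 and 0.46 (adjusted p = 0.00646 and 0.00326), and MBTPS2 lost its call after GC correction (adjusted p = 0.0776). ATF3, PPP1R15A and TRIB3, targets of the PERK branch, fell, with log2 fold changes of -1.91, -1.57 and -1.56 (adjusted p = 4.15e-07, 2.07e-06 and 2.74e-06). ATF6B, a relative of ATF6, fell from 18.2 ± 1.69 to 4.93 ± 0.176 FPKM (SD, n = 3; log2 fold change -1.69, adjusted p = 2.24e-06). XBP1, which drives many PDI family genes once spliced, was at 365, 369 and 345 FPKM in sh-NC and 206, 207 and 209 FPKM in sh-CLGN (log2 fold change -0.79, adjusted p = 6.64e-06). Gene totals do not separate spliced from unspliced XBP1, and a part of XBP1 in the changes of the PDI genes was not tested. XBP1 and ATF6, at -0.16 (adjusted p = 0.0598), are named after their values were seen.

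Hypoxia-induced genes, among which ERO1A is often counted, were mostly lower. Of 12 genes 10 were tested, 7 were lower, 1 was higher and 2 were not called (median -0.44). The higher gene, EGLN3, named after its values were seen, was at 0.955, 1.09 and 0.905 FPKM in sh-NC. It passed the filter only with the help of the sh-CLGN libraries. VEGFA, BNIP3 and NDRG1 fell, with log2 fold changes of -0.88, -0.61 and -0.57 (adjusted p = 1.06e-05, 1.83e-05 and 4.86e-05), where ERO1A was at 0.21. Disulfide-rich proteins that liver cells secrete or display, the clients of this machinery, were 9 lower and 3 higher of 12, with a median of -0.33. The 3 higher genes were FGB, FGG and AFP, named after their values were seen. Summed over the list, the level overlapped between groups, at 6005 to 6370 FPKM in sh-NC and 5984 to 6322 FPKM in sh-CLGN. The largest terms of this sum moved in opposite directions, AFP from 2670 to 3782 FPKM and ALB from 2007 to 1076 FPKM. The sum therefore does not describe the other genes of the list. TF (transferrin) and F2 (prothrombin) fell, with log2 fold changes of -1.62 and -1.21 (adjusted p = 4.15e-07 and 2.74e-06). With scaling by read totals, this list held 5 lower and 3 higher genes.

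Chance pairing of the hairpin with transcripts other than CLGN was looked up for the 10 genes. Guide positions 2 to 8 pair with the heptamer TACCACA, which stood in the 3′ UTR of 13.1% of 10909 tested genes and of 1 of the 10, ERO1A. The heptamer for positions 1 to 7, ACCACAA, was in 14.3% of genes and in PDIA6 only of the 10, and that for positions 3 to 9, ATACCAC, in 9.69% and in none of the 10. The sites are printed on the transcript strand with the heptamer in capitals, at base 2978 of the ERO1A 3′ UTR and base 554 of the PDIA6 3′ UTR (GENCODE 29).
ERO1A: gctcaatgtTACCACAgcaggcttt
PDIA6: cctatgcccACCACAAcagagattt
ERO1A rose and PDIA6 fell. The other 8 genes, PDIA4 and ERO1B included, held none of the 3 heptamers in their annotated 3′ UTRs.

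**Figure D5:**
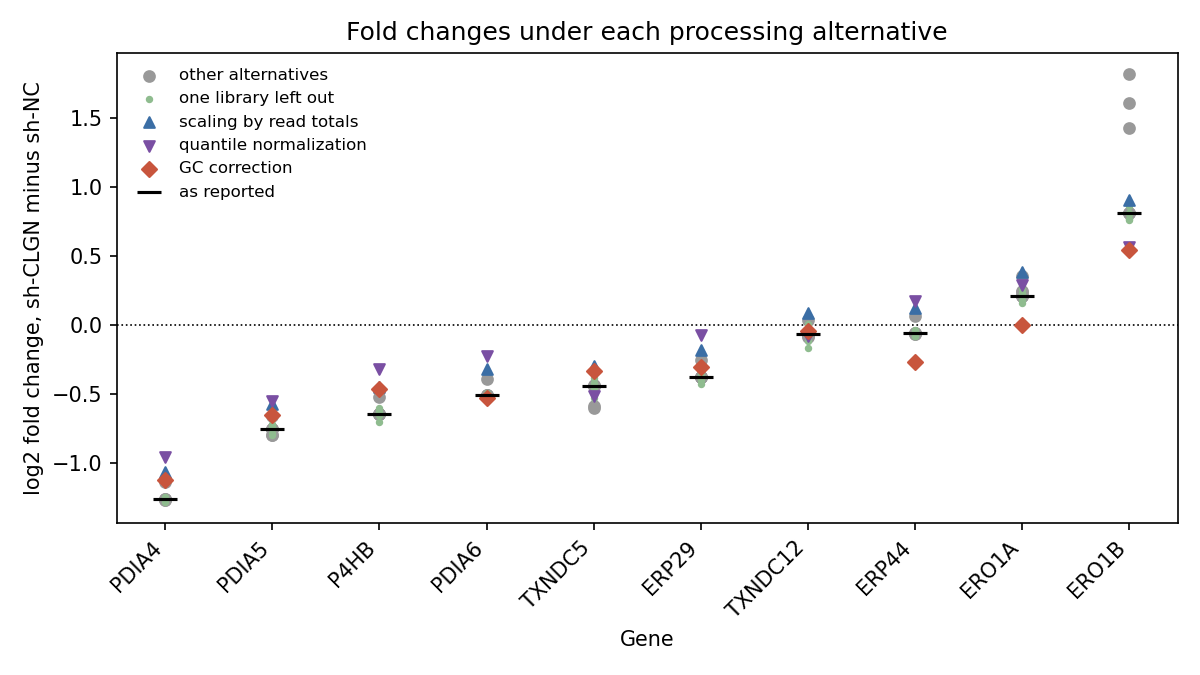
Log2 fold change of each of the 10 genes between sh-CLGN and sh-NC under the 15 processing alternatives (points) and as reported (black lines). P4HB, PDIA4, PDIA5, PDIA6, TXNDC5 and ERP29 stay below 0 and ERO1B above 0 in all of them. TXNDC12 and ERP44 lie on both sides of 0, and ERO1A reaches -0.0012 after GC correction.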

How the data were processed

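Per the labels, libraries of 6 Hep-G2 samples (3 sh-NC, 3 sh-CLGN) were made with an NEB Ultra RNA kit. FPKM, computed by the authors, were deposited in 1 table with gene lengths and positions. The submitters' processing notes name HISAT2 2.0.5, featureCounts and GRCh38, while the strandedness and the handling of shared reads are not given in the sources used here. All 58735 gene positions equalled GENCODE 29. Columns named KD were matched to sh-CLGN samples by replicate number. Multiplied by gene length, 100% of the values were whole multiples of 1 read (tolerance 0.01 of a read), so reads per gene could be recovered. Relative to these read totals, the size that the authors had divided by was 0.933 to 0.953 for sh-NC libraries and 1.07 to 1.08 for sh-CLGN libraries. Intervals were not computed, and reads carry no molecular identifiers.

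The main test was limma 3.58.1 (R 4.3.3; eBayes with intensity trend) on log2(FPKM + 1), with genes at 1 FPKM or more in at least 3 libraries, no covariate and two-sided Benjamini-Hochberg adjusted p-values over 13074 genes. Sums and ratios were compared by two-sided exact permutation tests over libraries. The procedure was tested on simulated data with at most 200 genes changed. That setting does not cover a change as broad as the 65.8% of tested genes called here. The 10 genes, the 7 lists and the 4 marker lists were chosen with earlier results of these data known. Named genes are the 10, CLGN, list members past both thresholds or among the 3 smallest adjusted p of a list, and the 3 genes nearest to PDIA4, and others are stated as chosen after their values were seen. A gene that meets this rule is not reported here. No set test was run.

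There were 15 alternatives, namely a pseudocount of 0.1, no filter, quantile normalization, TPM, scaling by read totals, a GC correction (lowess span 0.3), voom on the recovered reads, limma without trend, the replicate number as a block, and each of 6 libraries left out. Promoter windows are from RefSeq (GRCh38.p14), and all 10 genes matched, with 14 windows. Sites of the hairpin's guide were searched in 3′ UTRs of GENCODE 29. Tables were handled with pandas 2.3.3 and numpy 2.4.6 under Python 3.11.15, permutations with scipy 1.17.1 and plots with matplotlib 3.10.9.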

Additional observations from a re-analysis of the deposited data

How the results depend on the processing

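The calls for P4HB, PDIA4, PDIA5, PDIA6, TXNDC5 and ERO1B were kept under all 15 alternatives, with log2 fold changes of -0.70 to -0.32, -1.28 to -0.96, -0.80 to -0.55, -0.53 to -0.23, -0.60 to -0.30 and 0.55 to 1.82. ERO1B passed the filter only through the sh-CLGN libraries and so had to differ to be tested. Most alternatives used the same filtered genes, so its kept calls add no support. ERP29 lost its call with quantile normalization only (-0.07). ERO1A lost its call under 7, with a value of -0.0012 after GC correction. TXNDC12 was at 0.041 with TPM, 0.088 with read totals and -0.16 to 0.0071 with 1 library left out (0.0071 without sh-NC 2), and ERP44 at 0.17 with quantile normalization, 0.064 with TPM and 0.13 with read totals. The cause was not tested. Against 1 of the 10 genes and 821 of all genes past both thresholds, a pseudocount of 0.1 gave 2 and 1606, TPM 2 and 1426 and voom 2 and 1722, with ERO1B as the second gene, and quantile normalization gave 0 and 680. Leaving out 1 library gave 784 to 902 genes.

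Scaling moved the median of all genes by 0.160 with read totals and 0.109 with TPM, and dropping the filter by 0.108. Calls of 3496 higher and 5102 lower genes became 4956 and 3421 with read totals, 4285 and 3923 with TPM, 3954 and 4251 with quantile normalization and 4538 and 4708 without the filter. The difference in the log2 PDI sum was -0.58, -0.51 and -0.40 with TPM, read totals and quantile normalization, and -0.74 to -0.68 with 1 library left out, where the smallest possible p is 0.2.

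Shared replicate numbers gave no sign of pairing, since deviations from the group means correlated at -0.02, -0.05 and -0.15 for numbers 1, 2 and 3. With the replicate number as a block, 8038 genes were called, 821 past both thresholds, and 7 of the 10 genes, since ERO1A lost its call (adjusted p = 0.0618). At 28 to 42 reads, ERO1B in sh-NC is limited by depth.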
